A study of Arabidopsis thaliana with 6 samples.

Results

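The chloroplast chromosome of Arabidopsis thaliana carries the genes for the core subunits of the photosynthetic machinery, and 44 of them were followed here in embryos lacking normal microRNA production. They were the probe sets that name a single gene whose symbol is psa, psb, pet, ndh or atp in lower case followed by 1 capital letter, or is rbcL, ycf3 or ycf4. These 44 probe sets stand for 44 different genes, out of 17122 probe sets tested and 9631 that name a single gene. All 44 lie on the plastid chromosome in RefSeq's gene list for TAIR10.1, as do 24 other measured genes. The names comprise 15 genes of photosystem II, 5 of photosystem I with its assembly factors ycf3 and ycf4, 6 of the cytochrome b6f complex, 9 of the NDH complex, 6 of the ATP synthase, and rbcL.

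Wild-type embryos at the torpedo stage, taken from DCL1/DCL1 plants, were compared with homozygous dcl1-15 embryos taken from DCL1/dcl1-15 plants, so the mother plants differed in genotype as well. Both groups came from a Ws background backcrossed repeatedly to Landsberg erecta, and the mutant embryos shared siliques with normal siblings that had reached the torpedo stage. Each of the 6 samples, 3 per genotype, pooled 300 embryos dissected from ovules, and its amplified, biotin-labelled cDNA was hybridised to 1 single-colour array. DCL1 makes most plant microRNAs, and its own level was not analysed here.

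Chloroplasts form in the Arabidopsis embryo as it greens, while it is still enclosed in the seed. Photosystem II splits water and passes electrons through the cytochrome b6f complex to photosystem I, the ATP synthase uses the proton gradient that results, and the NDH complex returns electrons to the chain. Most of the plastid genes for these complexes are read by a bacterial-type polymerase whose own core subunits (rpo genes) are plastid-encoded, and many are transcribed together as clusters of neighbouring genes. The nucleus supplies the remaining subunits, the sigma factors and the proteins that edit, splice and stabilise plastid RNAs.

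Levels are the deposited normalized log2 values, and a difference is the dcl1-15 mean minus the wild-type mean on that scale. A gene is said to have risen or fallen only where limma's moderated test gave a Benjamini-Hochberg adjusted p under 0.05 over all 17122 probe sets. The array medians lay between 6.34 and 6.48. Arrays correlated with r of 0.969 to 0.991 within wild type and 0.984 to 0.994 within dcl1-15. In each genotype the lower correlations were those of the array numbered 1, and results are therefore also given without those arrays. Those fits hold only the arrays numbered 2 and 3 of each genotype, and the arrays left out were chosen in these same data. Their p-values are therefore not independent support for a change. Of 7 listed embryo markers 4 were measured. The storage protein gene PAP85 and the oleosin gene OLEO3 rose in dcl1-15, and BBM and YAB3, regulators of embryo growth and organ polarity, fell. The embryo regulators LEC1, ABI3 and FUS3 were not analysed here. In pooled embryos, fewer chloroplast-bearing cells and less plastid RNA per cell cannot be told apart.

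Of the 44 plastid photosynthesis genes, 1 fell in dcl1-15 embryos, ndhH, and 0 rose. Among all probe sets limma called 20.8% lower and 18.3% higher, 39.1% in all, against 2.27% of these genes. At an unadjusted limma p under 0.05 the count was 8 of 44, against 48.6% of all probe sets. With the replicate number as a block in the same fit, 10 of the 44 fell and 2 rose (background 26.8% and 22.4%). The median difference over the 44 genes was -0.10, beside -0.07 over all probe sets, with 30 genes at a negative and 14 at a positive difference. The sizes were small: 1 gene of 44, petD, differed by more than 1 log2 (2-fold), against 23.7% of all probe sets, and the median absolute difference was 0.32, against 0.50. The standard errors were slightly larger than usual, with a median of 0.28 against 0.23. For 23 of the 44 genes the 95% interval of the difference lay inside 1 log2 on either side of 0, as it did for 46.1% of all probe sets. For the other 21 genes the interval reached to a 2-fold difference or beyond, so a change of that size was not excluded at 3 arrays a genotype. In 16 of the 44 genes all 3 same-numbered pairs of arrays were lower in the mutant (38.8% of all probe sets were), and the genotypes did not overlap in 2 genes, both lower in dcl1-15 (28.5% of all probe sets were lower and 24.0% higher without overlap).

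**Figure D1:**
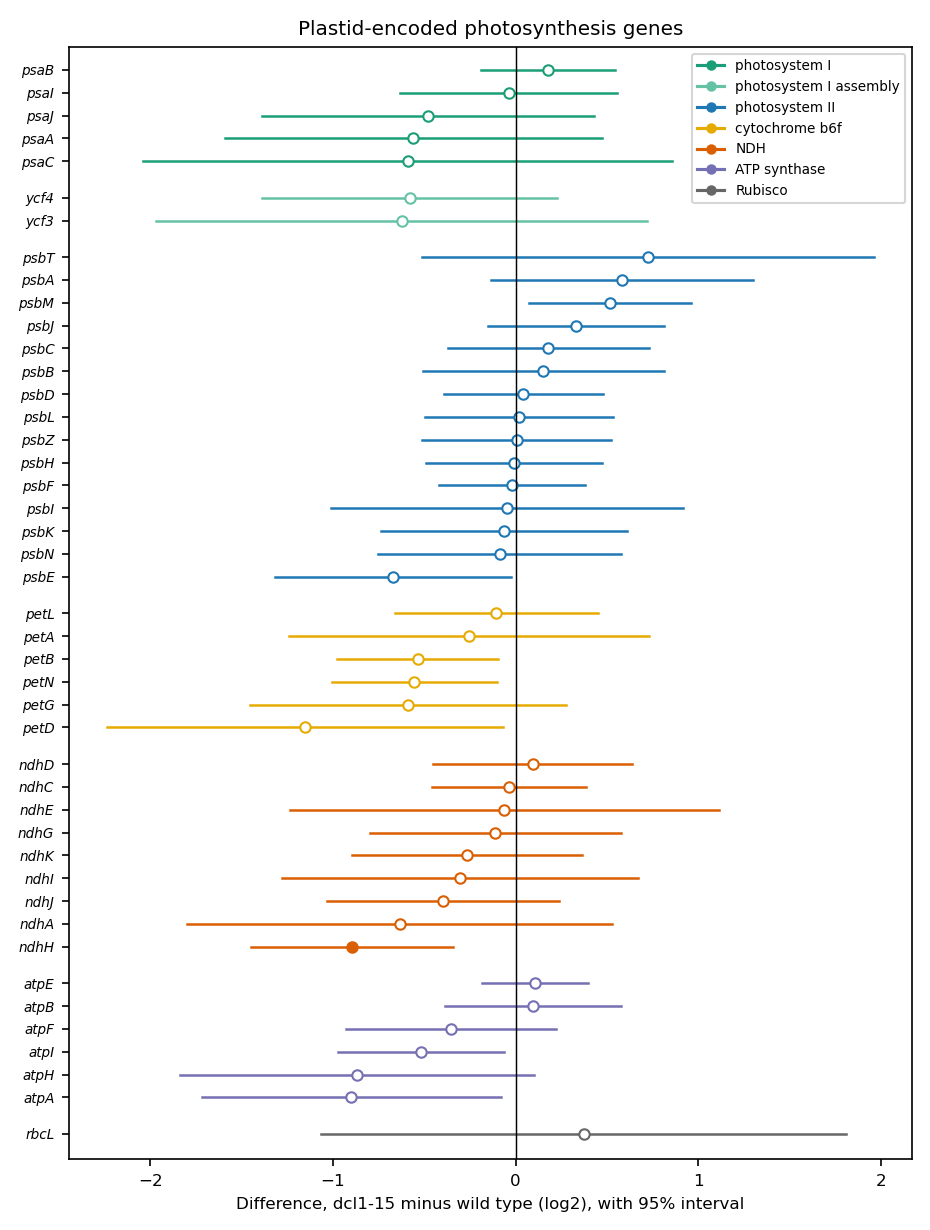
Difference between dcl1-15 and wild type (log2, x axis) for each of the 44 genes, grouped by complex, with the 95% interval from limma as a line; the filled point, ndhH, is past the adjusted threshold and open points are not. Photosystem II genes centre on 0.02, all 6 cytochrome b6f genes lie below 0, and ATP synthase genes run from -0.90 to 0.11.

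Medians by complex ran from -0.60 to 0.02. Photosystem II had the median nearest 0, at 0.02 over 15 genes, with 9 positive and 6 negative differences. The medians were -0.26 for the 9 NDH genes, -0.44 for the 6 ATP synthase genes, -0.48 for the 5 photosystem I genes, -0.55 for the 6 cytochrome b6f genes and -0.60 for ycf3 and ycf4. When single arrays were left out, the median ran from -0.05 to 0.22 for photosystem II, -0.44 to -0.06 for NDH, -0.64 to -0.31 for ATP synthase, -0.64 to 0.03 for photosystem I, -0.60 to -0.36 for cytochrome b6f, and -1.13 to -0.22 for ycf3 and ycf4. With all arrays, 6 of 6 cytochrome b6f genes and 8 of 9 NDH genes had negative differences; without the arrays numbered 1, petA (0.27), ndhC (0.17) and ndhE (0.03) were positive. Differences between complexes were not tested, because genes of a complex share arrays and transcripts and are not replicates.

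The arrays numbered 1 stood apart from the others in many of these genes. When each dcl1-15 array was set against the wild-type array of the same number, 20 of the 44 genes had a pair 1 difference opposite in sign to both other pairs (45.5%, against 14.1% of all probe sets). For pair 2 and pair 3 the same counts were 4 and 3 (9.09% and 6.82%, against 8.5% and 6.67% of all probe sets). All 3 pairs had the same sign in 17 of the 44 genes, against 12119 of 17122 probe sets. A smaller share of all probe sets than of these genes was thus left in which 1 pair could stand alone. In 14 of the 20 genes pair 1 was lower and the other pairs higher, and 10 of those 14 were photosystem II genes. In the remaining 6, atpF, ycf3, psaI, psbN, ndhG and ndhI, pair 1 was higher and the other pairs lower. Among the wild-type arrays, 12 of the 15 photosystem II genes peaked on the one numbered 1, and 7 of the 9 NDH genes were lowest there. Among the dcl1-15 arrays, 28 of the 44 genes were lowest on the one numbered 1 and 32 were highest on the one numbered 3.

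Without the arrays numbered 1, 2 arrays per genotype remained. Limma then called 7 genes higher and 8 lower, where it called 23.3% of all probe sets higher and 28.7% lower. The 7 higher genes were psbA, psbB, psbC, psbJ, psbM and psbT of photosystem II and rbcL. The 8 lower genes were atpF, atpH and atpI of the ATP synthase, ndhH and ndhI, petN, ycf3 and ycf4. With the replicate number as a block over all 6 arrays, the 2 genes that rose were psbA and psbM, and the 10 that fell were atpA, atpH, atpI, ndhA, ndhH, petB, petD, petG, petN and ycf4.

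**Figure D2:**
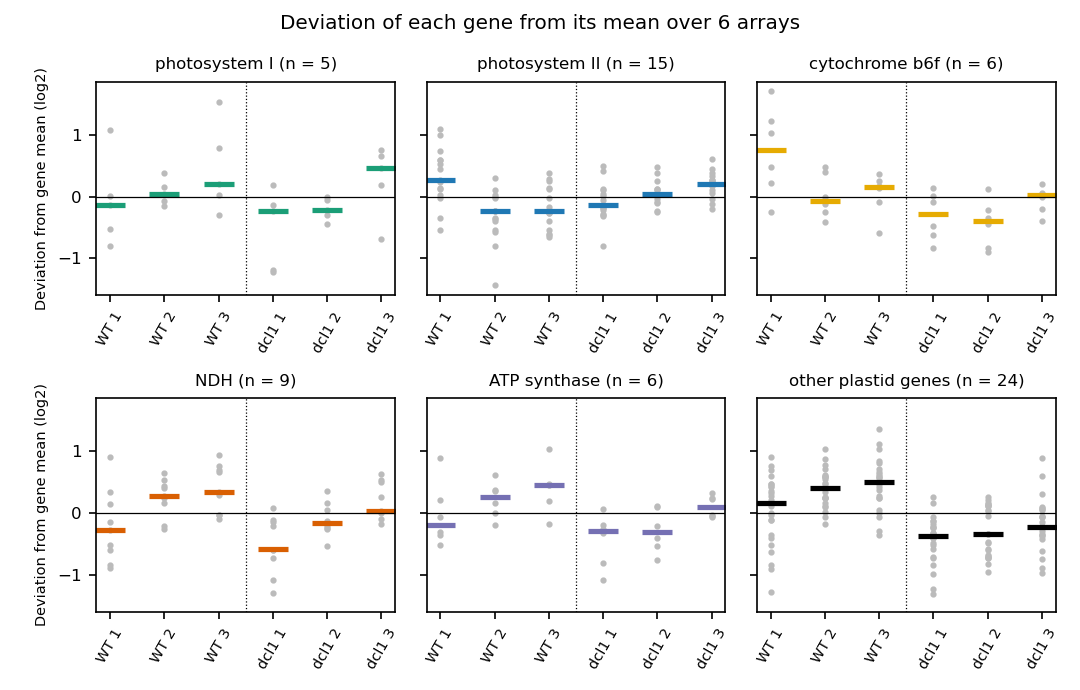
Deviation of each gene from its own mean over the 6 arrays (log2, y axis) on each array (x axis, WT for wild type and dcl1 for dcl1-15), with grey points for genes and a coloured bar for the median of the complex; the last panel holds the 24 other plastid genes. The photosystem II median is 0.27 on the wild-type array numbered 1 and -0.23 and -0.24 on the other wild-type arrays, while the NDH median is -0.27 there and 0.28 and 0.35 on the others.

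Photosystem II is built around the D1 protein, encoded by psbA, and the D2 protein, encoded by psbD. psbA measured 10.51, 9.18 and 9.36 on the wild-type arrays 1 to 3 and 10.48, 10.07 and 10.25 on the dcl1-15 arrays. The wild-type array numbered 1 lay above all mutant arrays and the other wild-type arrays below them, so the groups overlapped. The difference was 0.58 ± 0.32 (SE, n = 3 per genotype; limma adjusted p = 0.176). With the block psbA rose (limma adjusted p = 0.0339). Without the arrays numbered 1, and so without its highest value, it rose by 0.89 (limma adjusted p = 3.73e-04). psbD measured 10.08, 9.82 and 10.19 in wild type and 9.77, 10.01 and 10.43 in dcl1-15. Its groups were interleaved and its difference was 0.04 ± 0.19 (limma adjusted p = 0.879, 95% interval -0.39 to 0.48).

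The inner antenna proteins that feed the reaction centre are encoded by psbB and psbC. psbB measured 11.02, 9.85 and 10.19 in wild type and 10.21, 10.44 and 10.87 in dcl1-15. psbC measured 11.10, 10.12 and 10.49 in wild type and 10.47, 10.78 and 11.00 in dcl1-15. Both were highest of all on the wild-type array numbered 1 and lower on the other wild-type arrays, with differences of 0.15 and 0.18. psbE and psbF encode the heme-binding cytochrome subunits of the reaction centre. psbE had the lowest difference of the complex, with 8.67, 7.93 and 8.22 in wild type and 7.13, 7.69 and 7.99 in dcl1-15. All 3 pairs were lower in the mutant, with differences of -1.54, -0.245 and -0.23, and the mean difference of -0.67 ± 0.29 did not pass (limma adjusted p = 0.0932).

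Small membrane subunits of photosystem II spread on both sides of 0. psbT had the highest difference of the complex, with 6.84, 4.40 and 5.18 in wild type and 5.94, 6.22 and 6.45 in dcl1-15. All mutant arrays exceeded the wild-type arrays numbered 2 and 3 and lay below the one numbered 1, and the difference was 0.73 ± 0.54 (limma adjusted p = 0.321). Without the arrays numbered 1, and so without its highest value, psbT rose by 1.54 (limma adjusted p = 5.41e-04). psbM measured 9.89, 9.54 and 9.51 in wild type and 10.32, 10.39 and 9.79 in dcl1-15, and was the only one of the 44 genes higher in all 3 pairs, where 32.0% of all probe sets were. Its difference was 0.52 ± 0.19 (limma adjusted p = 0.0640, and 0.0178 with the block). psbJ differed by 0.33, and psbL, psbZ, psbH, psbF, psbI, psbK and the assembly factor psbN by -0.09 to 0.02.

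**Figure D3:**
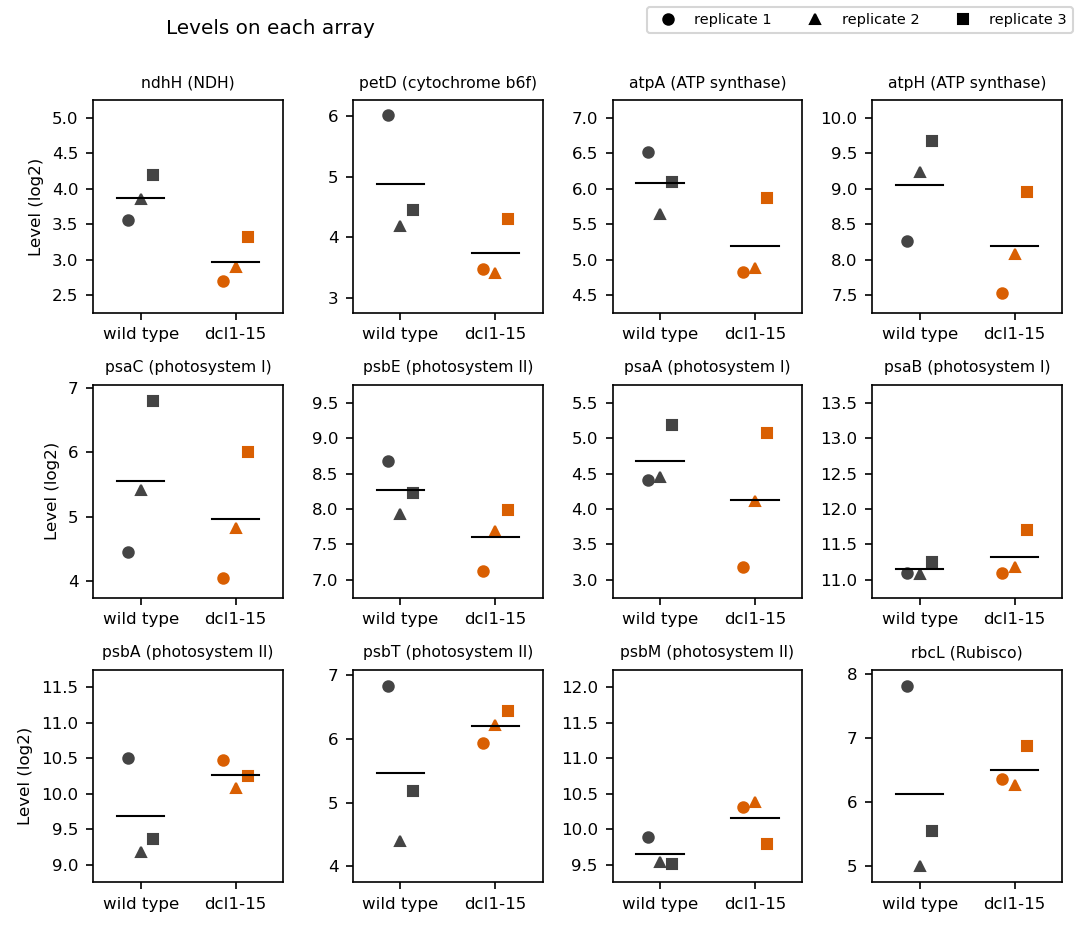
Levels (log2, y axis) of 12 genes on each array, with a symbol for each replicate number and a bar for the group mean; each panel has its own axis range. The 3 mutant values of ndhH lie below all wild-type values, while in psbA, psbT and rbcL the wild-type replicate 1 lies above the mutant values and the other wild-type replicates below them.

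In photosystem I, psaA and psaB encode the paired core proteins of the reaction centre. psaB measured 11.10, 11.09 and 11.26 in wild type and 11.10, 11.18 and 11.70 in dcl1-15, a difference of 0.18 ± 0.16 (limma adjusted p = 0.415). psaA measured 4.41, 4.44 and 5.19 in wild type and 3.19, 4.11 and 5.06 in dcl1-15, a difference of -0.56 ± 0.45 (limma adjusted p = 0.359). The psaA values were lower in the mutant in all 3 pairs, with differences of -1.22, -0.33 and -0.12. Its lowest value, on the dcl1-15 array numbered 1, lay under log2 of 4. The psaA difference was -0.29 with values under log2 of 4 raised to 4, and -0.09 without that array. psaC, which binds the terminal iron-sulfur clusters, had the lowest difference of the complex. It measured 4.45, 5.41 and 6.79 in wild type and 4.06, 4.82 and 6.01 in dcl1-15. In both genotypes the array numbered 1 was lowest and the one numbered 3 highest, each pair was lower in the mutant, and the difference was -0.59 ± 0.64 (limma adjusted p = 0.497, and 0.0501 with the block). The small subunit genes psaJ and psaI differed by -0.48 and -0.04.

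The photosystem I assembly factors ycf3 and ycf4 showed the same split by replicate number. ycf3 measured 6.75, 8.88 and 9.02 in wild type and 6.84, 7.81 and 8.13 in dcl1-15. The arrays numbered 1 were the lowest in both genotypes, and the other mutant arrays lay below the other wild-type arrays. The difference was -0.62 ± 0.59 with all arrays (limma adjusted p = 0.435) and -0.98 without those numbered 1 (limma adjusted p = 8.17e-04). ycf4 measured 7.59, 8.17 and 8.96 in wild type and 7.31, 7.58 and 8.08 in dcl1-15, lower in each pair. Its difference of -0.58 passed with the block (limma adjusted p = 0.0329) and not without it (limma adjusted p = 0.229).

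With all arrays the 6 cytochrome b6f genes had lower means in the mutant, with 0 called by limma (3 at an unadjusted p under 0.05), and 4 of the 6, petB, petD, petG and petN, were lower in all 3 pairs. petB, encoding cytochrome b6, was with ndhH the pair of genes whose genotypes did not overlap. It measured 9.63, 9.80 and 9.57 in wild type and 8.77, 9.17 and 9.44 in dcl1-15, a difference of -0.54 ± 0.19 (limma adjusted p = 0.0565, and 0.0285 with the block). petD, encoding subunit IV, had the lowest difference of all 44 genes. It measured 6.02, 4.19 and 4.45 in wild type and 3.48, 3.42 and 4.30 in dcl1-15. The wild-type array numbered 1 was well above the rest, and the difference of -1.15 ± 0.48 (limma adjusted p = 0.0854, and 0.0455 with the block) was -0.46 without the arrays numbered 1. The petD values on dcl1-15 arrays 1 and 2 lay under log2 of 4. With values under log2 of 4 raised to 4, the petD difference was -0.78 (limma adjusted p = 0.380).

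petA, encoding cytochrome f, differed by -0.25 with all arrays and by 0.27 without those numbered 1, with its highest value of 8.16 on the wild-type array numbered 1 and 6.35 to 6.99 on the rest. The small subunit genes petG, petN and petL were dim. petL, the gene nearest 0 in the complex, measured 2.09, 2.82 and 2.25 in wild type and 1.86, 2.45 and 2.53 in dcl1-15. Its difference was -0.11 ± 0.24 (limma adjusted p = 0.762). petN and petG differed by -0.55 and -0.59, and both were lower in each pair. All values of petL, petN, atpI and ndhJ lay under log2 of 4, as did those of 19.4% of all probe sets, where the distance from background is not given.

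The NDH complex held the 1 gene that passed. ndhH, a subunit of the arm that protrudes from the membrane, measured 3.56, 3.85 and 4.19 in wild type and 2.69, 2.89 and 3.32 in dcl1-15. All mutant values lay below all wild-type values, and the same-numbered arrays differed by -0.86, -0.96 and -0.87. The gene fell by 0.90 ± 0.24 on the log2 scale (1.86-fold; limma adjusted p = 0.0189). These levels are low, and with values under log2 of 4 raised to 4 the difference was -0.06 (limma adjusted p = 0.531). The call was also lost when wild-type replicate 3 was left out, or either of dcl1-15 replicates 1 and 2 (limma adjusted p = 0.0634, 0.0628 and 0.0753) and with arrays centred on the reference genes (limma adjusted p = 0.0588).

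The other NDH genes did not pass. ndhD, a membrane subunit with the highest difference of the complex, measured 8.63, 9.07 and 8.87 in wild type and 8.76, 8.65 and 9.43 in dcl1-15, a difference of 0.09 ± 0.24 (limma adjusted p = 0.787). ndhA measured 5.20, 6.26 and 6.66 in wild type and 4.42, 5.57 and 6.22 in dcl1-15, and each pair was lower in the mutant. Its difference of -0.64 ± 0.51 passed with the block (limma adjusted p = 0.0369) and not without it (limma adjusted p = 0.356). ndhI differed by -0.30 with all arrays and by -0.60 without those numbered 1, when it fell (limma adjusted p = 0.0196). ndhJ, ndhK, ndhG, ndhE and ndhC differed by -0.40 to -0.04. The 2 copies of ndhB share a probe set that names both, so it is outside the 44, and ndhF was not analysed here. That ndhB probe set measured 4.37, 3.50 and 4.14 in wild type and 3.08, 3.13 and 2.98 in dcl1-15, fell by 0.94 ± 0.25 on the log2 scale (limma adjusted p = 0.0169), and is likewise dim.

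With all arrays limma called 0 of the 6 ATP synthase genes (2 at an unadjusted p under 0.05). The neighbours atpI, atpH, atpF and atpA, which form a cluster, differed by -0.52, -0.87, -0.35 and -0.90, while the adjacent pair atpB and atpE differed by 0.10 and 0.11. atpA, the alpha subunit of the catalytic head, measured 6.52, 5.64 and 6.10 in wild type and 4.82, 4.88 and 5.86 in dcl1-15. Each pair was lower in the mutant, the dcl1-15 array numbered 3 overlapped wild type, and the difference of -0.90 ± 0.36 had limma adjusted p = 0.0786 (0.0360 with the block). atpH, the subunit of the membrane ring, measured 8.26, 9.24 and 9.67 in wild type and 7.53, 8.09 and 8.95 in dcl1-15. Each pair was lower, with differences between -1.15 and -0.72, and the difference of -0.87 ± 0.43 had limma adjusted p = 0.139 (0.00324 with the block).

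The catalytic beta subunit and the epsilon subunit, encoded side by side, differed little. atpB measured 9.66, 10.34 and 10.38 in wild type and 9.99, 10.27 and 10.42 in dcl1-15, a difference of 0.10 ± 0.21 (limma adjusted p = 0.746, 95% interval -0.39 to 0.58). atpE measured 11.46, 11.07 and 11.07 in wild type and 11.32, 11.37 and 11.23 in dcl1-15, a difference of 0.11 ± 0.13 (limma adjusted p = 0.544, 95% interval -0.18 to 0.40). For both, the interval leaves out a 2-fold difference in either direction.

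rbcL encodes the large subunit of Rubisco, the carbon-fixing enzyme. It measured 7.81, 5.01 and 5.54 in wild type and 6.36, 6.26 and 6.87 in dcl1-15. The mutant arrays lay within the span of the wild-type arrays, below the one numbered 1 and above the others. The difference was 0.37 ± 0.63 (limma adjusted p = 0.674) with all arrays. It was 1.29 without those numbered 1, and so without the highest value (limma adjusted p = 0.00177).

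Neighbouring genes within a cluster did not all have like differences. In RefSeq order, the neighbours from psbB to petD differed by 0.15 (psbB), 0.73 (psbT), -0.09 (psbN), -0.01 (psbH), -0.54 (petB) and -1.15 (petD). In the cluster that ends with ndhH the differences were 0.09 (ndhD), -0.59 (psaC), -0.06 (ndhE), -0.11 (ndhG), -0.30 (ndhI), -0.64 (ndhA) and -0.90 (ndhH). In the psbE cluster they were 0.33 (psbJ), 0.02 (psbL), -0.02 (psbF) and -0.67 (psbE). The psbD cluster was even, at 0.04, 0.18 and 0.01 for psbD, psbC and psbZ, and so were psbK and psbI at -0.06 and -0.05. The differences were -0.04, -0.58 and -0.25 for psaI, ycf4 and petA, and -0.11, -0.59 and -0.48 for petL, petG and psaJ. For the neighbours psaB and psaA they were 0.18 and -0.56. Probe sets of neighbouring genes can share transcripts, and no test was made of these orders.

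**Figure D4:**
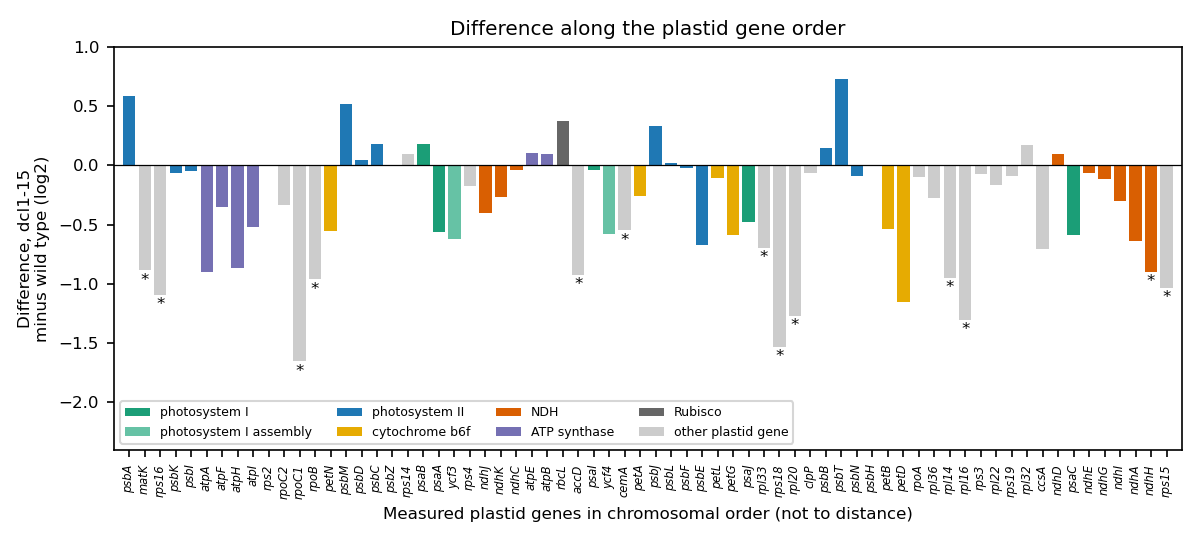
Difference between dcl1-15 and wild type (log2, y axis) for the 68 measured plastid genes in chromosomal order, without distances; colours mark the complexes, grey bars the 24 other plastid genes, and asterisks the genes past the adjusted threshold. The asterisks stand on 12 grey bars and on ndhH, and the atpA to atpI stretch lies below 0 while atpE and atpB lie just above it.

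The other plastid genes differed more. Of the 24 measured, 12 fell and 0 rose (background 20.8% and 18.3%), with a median difference of -0.62, beside -0.10 for the photosynthesis genes. They were 7 of 15 ribosomal protein genes, 2 of 4 RNA polymerase genes and 3 of 5 others. Without the arrays numbered 1, 16 of the 24 fell and 0 rose. The polymerase genes rpoC1 and rpoB fell by 1.65 and 0.96 on the log2 scale, while rpoA and rpoC2 differed by -0.10 and -0.34. All values of rpoB and the mutant values of rpoC1 lay under log2 of 4, while rpoA and rpoC2 were brighter. The 2 groups of plastid genes were not tested against each other.

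Nuclear genes supply the other subunits of these complexes. Of 62 listed nuclear subunit and antenna genes 13 were measured, of which 2 rose, 2 fell and 9 did not pass (background 39.1%). The photosystem I subunit genes PSAE1 and PSAN differed by -0.14 and -0.10. The photosystem II subunit genes PSBW and PSBY differed by 0.07 and 0.06, and ATPC1, the gamma subunit of the ATP synthase, by 0.25. The 2 genes that rose were LHCB4.3, of a minor antenna protein family, by 1.34 ± 0.16, and NdhS, which binds ferredoxin at the NDH complex, by 1.10 ± 0.14 (limma adjusted p = 4.10e-04 and 5.26e-04). LHCB4.1 and LHCB4.2, of the same family as LHCB4.3, differed by -0.002 and -0.03 (limma adjusted p = 0.988 and 0.867). The NDH subunit genes NdhN and NdhL fell by 0.96 and 0.61 on the log2 scale, with all values under log2 of 4 (limma adjusted p = 0.00124 and 0.0329). No small subunit gene of Rubisco was analysed here.

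Several nuclear factors that act on plastid RNA fell. All 5 measured of 15 listed RNA factors had negative differences and 4 fell (background 20.8%), all of them pentatricopeptide repeat proteins that edit plastid transcripts. OTP84, which acts on ndhB, ndhF and psbZ transcripts, fell by 1.29 ± 0.32 and CRR28, which acts on ndhB and ndhD transcripts, by 1.12 ± 0.38 (limma adjusted p = 0.0136 and 0.0453). OTP84 lay under log2 of 4 on all arrays but the wild-type array numbered 1, at 4.78. Without the arrays numbered 1 the differences of OTP84 and CRR28 were -0.81 and -0.85. CRR22 and OTP85 fell by 0.58 and 0.51 from values under log2 of 4, and CRR21 differed by -0.24. RPOTmp, a phage-type polymerase of mitochondria and plastids and the 1 gene measured of 20 listed for plastid transcription, fell by 0.76 ± 0.25 (limma adjusted p = 0.0389). The mutant values of RPOTmp lay under log2 of 4.

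Markers of seed coat and endosperm, the tissues around the embryo, were higher in the mutant samples. Of 13 listed, 6 were measured and 5 rose (background 18.3%), BAN, DFR, DELTA-VPE, SWEET11 and AT1G71250, while AT5G26630 differed by -0.15 and lay below log2 of 4 on all arrays. Their summed level on the linear scale was 2297 to 2612 on the wild-type arrays and 5917 to 6927 on the dcl1-15 arrays. The sum is carried by the brightest of them, and the mean of their log2 levels was 6.31, 7.19 and 6.77 on the wild-type arrays 1 to 3 and 7.89, 8.16 and 8.36 on the dcl1-15 arrays. In each genotype the array numbered 1 was thus the lowest in this mean. Among wild-type arrays, 12 of 15 photosystem II genes and rbcL were highest on that array, and 7 of 9 NDH genes were lowest. Among dcl1-15 arrays, 10 of 15 photosystem II genes and 6 of 9 NDH genes were lowest on the one numbered 1. In wild type, DELTA-VPE measured 7.23, 9.77 and 8.58 on arrays 1 to 3, and DFR 6.60, 8.56 and 7.98. The part of these tissues in the plastid transcript levels was not tested.

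Other settings are given here with the share of all probe sets that each called. Quantile normalization gave 4 lower genes (atpI, ndhH, petB and petN; background 20.8%) and 0 higher (18.1%). Centring on 3 reference genes gave 0 lower (16.5%) and 1 higher, psbM (18.7%). Raising values under log2 of 4 to 4 gave 0 lower (13.3%) and 0 higher (11.0%), and a mean of at least log2 of 5 gave 0 lower (22.2%) and 0 higher (17.9%) of 35. Without the intensity trend in limma, ndhH was again the 1 lower gene (20.0%) and 0 were higher (17.3%).

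Leaving out single arrays showed which ones the counts rest on. Without wild-type array 1 there were 8 lower genes (26.1%) and 4 higher, psbA, psbM, psbT and rbcL (20.5%). Without wild-type array 2 there were 2 lower (15.6%) and 0 higher (14.4%), and without wild-type array 3 there were 0 lower (16.2%) and 0 higher (15.0%). Without dcl1-15 array 1 there were 1 lower, petN (17.2%), and 0 higher (16.2%), without array 2 there were 0 lower (13.4%) and 0 higher (12.8%), and without array 3 there were 3 lower (14.3%) and 1 higher (13.9%). Without both arrays numbered 2 there were 0 lower (6.81%) and 0 higher (7.75%), and without both numbered 3 there were 0 lower (8.46%) and 0 higher (9.94%).

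**Figure D5:**
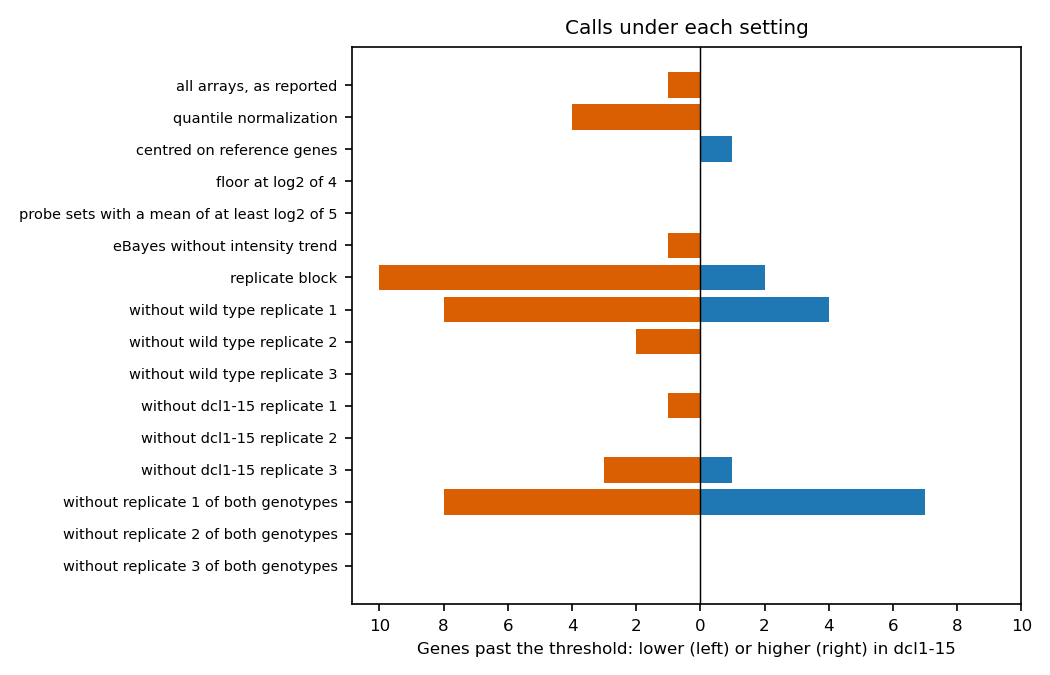
Number of the plastid photosynthesis genes past the adjusted threshold (x axis) under each setting of the analysis (y axis), lower in dcl1-15 to the left and higher to the right; 35 of the 44 genes were tested where a mean of at least log2 of 5 was required. The count with all arrays is 1 lower and 0 higher, against 10 lower and 2 higher with the replicate block and 8 lower and 7 higher without the arrays numbered 1.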

How the data were processed

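Gene expression was measured in 6 samples on single-colour arrays. The authors deposited one table of normalized log2 values covering 17159 probe sets; per the submitters' processing notes GCRMA and MAS5 were used, with no version or role given, and no scanner files or detection calls were used here. Probe sets of the 37 array controls were left out. Genes were named from the platform annotation, and 9584 of 9631 single-gene probe sets had their gene in the RefSeq list (TAIR10.1), which gave chromosome and order. No coordinates or sequences are printed. The fit was limma 3.58.1 in R 4.3.3 (lmFit, eBayes with an intensity trend) without covariates, with p-values adjusted (Benjamini-Hochberg) across 17122 probe sets. It was tried on simulated data with independent noise and planted changes larger than any difference among the 44 genes. That trial checks that the fit runs correctly and does not show how well differences of the sizes seen here are found. For arrays, their number limits the precision. An exact permutation test of 3 against 3 cannot go below p = 0.1 (two-sided), so none was used.

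The genes, lists and tests were chosen with earlier results of these data known. Values on every array are given for each gene past the threshold, for the genes with the highest and lowest difference of each complex of 3 or more, and for psbA, psbD, psaA, rbcL and atpB (ndhF, also chosen, was not analysed here); values of psbB, psbC, psbM, ycf3, ycf4, petB, ndhA, atpH and ndhB were added after they were seen. From each list, up to 2 genes past the threshold were to be named, and others were added likewise. Outside the plastid genes a gene was represented by its probe set with the highest mean. The labels number the samples 1 to 3 in each genotype and call them biological replicates, without saying what a shared number marks. Deviations from the group means correlated at 0.48, 0.21 and 0.36 for the same-numbered pairs 1 to 3. The unmatched pair of wild type 2 and dcl1-15 3 reached 0.31, above the 0.21 of pair 2. The arrays numbered 1 stood apart in each genotype, and their part in these correlations was not tested. Whether the numbers pair the samples was thus not settled. They were used for the same-numbered differences and the block, and the main fit took no account of them.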

Additional observations from a re-analysis of the deposited data

How the results depend on the processing

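Alternatives were quantile normalization, centring on 3 reference genes, a floor at log2 of 4, a mean of at least log2 of 5, no intensity trend, the replicate number as a block, and arrays left out. The 1 gene lower and 0 higher with all arrays became 4 lower with quantile normalization, 0 lower and 1 higher (psbM) when centred, 0 lower with the floor and 0 lower among the 35 genes above the mean cut-off. With the replicate block 10 were lower and 2 higher. With a single array left out, 0 to 8 were lower and 0 to 4 higher, the most without wild-type replicate 1 and 0 lower without wild-type replicate 3 or dcl1-15 replicate 2. Without both arrays of a number the counts were 8 lower and 7 higher for number 1, and 0 lower for numbers 2 and 3. The median over the genes, -0.10 with all arrays, was -0.20 to -0.05 with a single array left out, -0.25 without both arrays numbered 3, and -0.03 when centred. With the floor the medians of cytochrome b6f, ATP synthase and NDH were -0.18, -0.18 and -0.06, and the photosystem II median 0.27 without both arrays numbered 1. With single arrays left out, the photosystem I median ran from -0.64 to 0.03 (without wild-type replicate 3, and -0.09 without dcl1-15 replicate 1). Signs with single arrays left out were followed only for ndhH, the highest and lowest gene of each complex of 3 or more, and psbA, psbD, psaA, rbcL and atpB. Among these, atpB ran from -0.13 to 0.22, ndhD from -0.15 to 0.24, petL from -0.26 to 0.11 and psbD from -0.14 to 0.19. Likewise rbcL ran from -0.18 to 1.22, psaB from -0.01 to 0.29 and psaC from -1.14 to 0.03. The rest of those followed kept their sign, and other genes may have changed theirs. Without both arrays numbered 1 atpB was -0.01. Without both numbered 2, petL was 0.03, psbD -0.03 and rbcL -0.06, and without both numbered 3, ndhD was -0.14, psbD -0.05 and rbcL -0.10. The causes were not tested. Distance from background could not be assessed, since no detection calls were used.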
